A study of Mus musculus with 8 samples.

Results

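The genes examined here were 8 genes that activate fatty acids and build them into phospholipids: Acsl1, Acsl3, Acsl4, Acsl5, Lpcat3, Mboat1, Mboat2 and Por. Their chromatin was read as H3K4me3, the trimethylation of lysine 4 on histone H3, at every peak that the deposited H3K4me3 table lists under one of these gene names. This gave 17 of the 35486 listed peaks, from 6 of the 8 genes. Acsl3 and Mboat2 had no peak listed under their own names. Within the table, peaks were taken by gene name, whatever their signal.

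The H3K4me3 libraries came from CD45-CD31-EpCAM+ cells sorted from mouse lung tumors 10 weeks after intranasal Ad-Cre, an adenovirus that delivers Cre recombinase. KL mice (Lkb1fl/fl) provided 2 libraries, replicates 1 and 2, and KLG4m/m mice (Lkb1fl/fl with Gpx4m/m) provided 2 libraries, replicates 3 and 4. Cre deletion of Lkb1, Ad-Cre and tamoxifen were common to both groups, which differ in the Gpx4 allele alone by their labels. The Gpx4m/m allele carries rox-flanked Gpx4 with a tamoxifen-inducible Dre recombinase behind a Cre-removable STOP, so that Gpx4 is lost only in cells that Cre has reached. The labels give no age. The study's legend for these assays gives a separate mouse for each library of a group. The labels describe one cell sample per mouse but count 3 mice in total beside 4 H3K4me3 libraries, and the p-values below measure the spread between these libraries. The series also holds 4 H3K27ac samples, which were not analysed here.

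Long-chain acyl-CoA synthetases, the ACSL family, join free fatty acids to coenzyme A, and ACSL4 prefers arachidonic and other polyunsaturated acids. LPCAT3, MBOAT1 and MBOAT2 are lysophospholipid acyltransferases, which place an activated acyl chain on a lysophospholipid. LPCAT3 places polyunsaturated chains, and MBOAT1 and MBOAT2 favor monounsaturated ones. POR, the cytochrome P450 oxidoreductase, passes electrons from NADPH to P450 enzymes. Polyunsaturated phospholipids are the substrate of the lipid peroxidation that drives ferroptosis, POR is one source of that peroxidation, and GPX4 reduces the resulting lipid peroxides. H3K4me3 marks the nucleosomes around active and poised gene starts, so the comparison asks whether the starts of these genes carried more or less of the mark when Gpx4 was deleted.

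At 16 of the 17 peaks the difference between KLG4m/m and KL did not pass the test. At 1 peak, 11.8 kb upstream of the first listed Por start, H3K4me3 was higher in KLG4m/m. The test was edgeR's quasi-likelihood test on reads per peak, over all 35486 peaks, with Benjamini-Hochberg adjustment and an adjusted p of 0.05 as the threshold. The share of peaks called was 5.88% here and 8.62% over all listed peaks, where 3.1% were called higher and 5.52% lower. By position, 0 of the 8 peaks near a start were called, against 11.3% of all peaks within 1 kb of a start, and 1 of the other 9, against 6.11% of all other peaks. Levels below are CPM, that is reads scaled to each library's total in listed peaks with TMM factors, given as mean ± SD of 2 libraries, and differences are log2 fold changes of KLG4m/m over KL with a 95% interval.

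Of the 17 peaks, 8 lay within 1 kb of a listed start, 7 in introns and 2 in intergenic sequence. The log2 fold change was above 0 at 9 peaks and below 0 at 8, with a median of 0.03 against 0.01 over all listed peaks. The libraries of the groups did not overlap at 9 of the 17 peaks, with KLG4m/m above KL at 5 and below at 4. That share was 52.9%, and it was 54.2% over all listed peaks. An unadjusted p under 0.05 was found at 3 of the 17 peaks, and at 24.6% of all listed peaks.

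**Figure D1:**
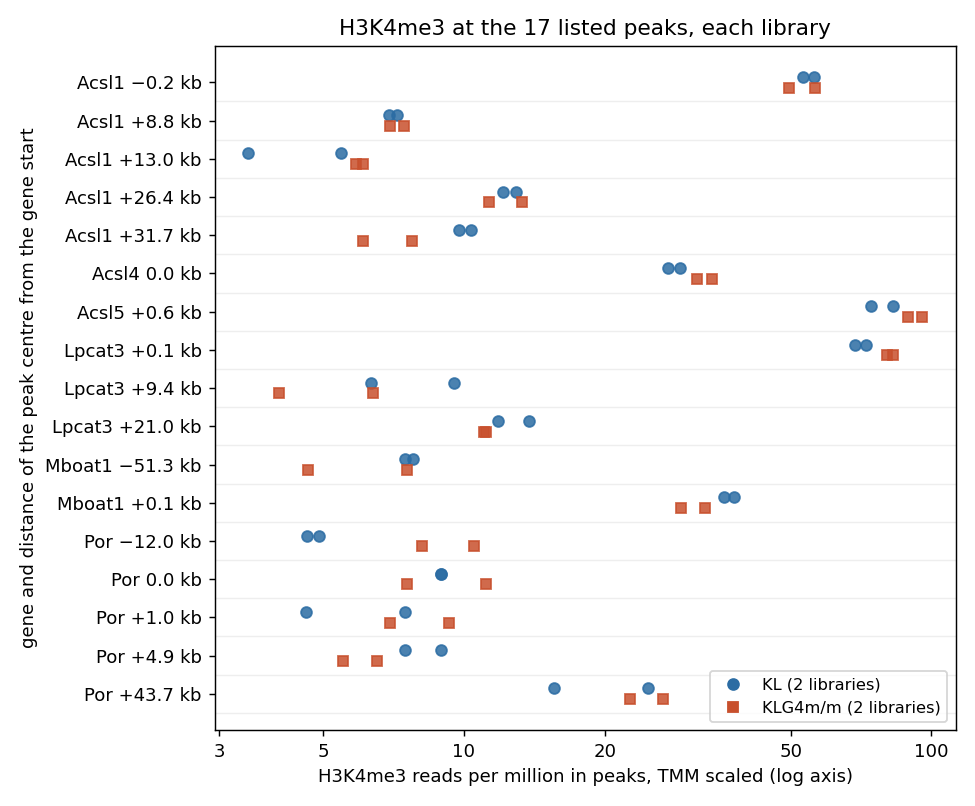
Each row is 1 of the 17 peaks, named by its gene and the distance of the peak centre from the gene start, and the horizontal axis gives CPM on a log scale. Circles are the 2 KL libraries and squares the 2 KLG4m/m libraries. The starts of Acsl5, Lpcat3 and Acsl1 carry the highest levels, and the squares stand clear to the right of the circles at the Por peak furthest upstream.

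The sequences that matter for reading these values are those at gene starts, because a peak is assigned to the start nearest to it and for 3 of the 8 genes the peak at or beside the RefSeq start bore another gene's name. RefSeq (GRCm38.p6) gave a promoter for each of the 8 genes, and for Acsl1 a further one within the gene. The 250 bases before the start are shown for these 3 genes, and for Acsl5 as the gene with the highest peak under its own name. All are written 5′ to 3′ on the strand of the gene, with CG dinucleotides, the letters of a CpG island, in capitals.
Por, chr5:135688895-135689144, plus strand: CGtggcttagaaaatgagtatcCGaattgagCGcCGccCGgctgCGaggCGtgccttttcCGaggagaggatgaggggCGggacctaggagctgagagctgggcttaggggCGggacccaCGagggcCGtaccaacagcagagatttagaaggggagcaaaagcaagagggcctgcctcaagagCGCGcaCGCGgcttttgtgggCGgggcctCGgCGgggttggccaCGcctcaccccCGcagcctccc
Acsl3, chr1:78657575-78657824, plus strand: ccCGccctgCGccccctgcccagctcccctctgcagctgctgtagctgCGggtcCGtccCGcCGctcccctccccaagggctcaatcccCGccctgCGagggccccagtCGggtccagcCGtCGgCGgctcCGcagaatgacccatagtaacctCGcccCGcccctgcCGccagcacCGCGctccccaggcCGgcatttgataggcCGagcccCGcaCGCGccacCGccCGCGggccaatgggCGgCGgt
Mboat2, chr12:24831349-24831598, plus strand: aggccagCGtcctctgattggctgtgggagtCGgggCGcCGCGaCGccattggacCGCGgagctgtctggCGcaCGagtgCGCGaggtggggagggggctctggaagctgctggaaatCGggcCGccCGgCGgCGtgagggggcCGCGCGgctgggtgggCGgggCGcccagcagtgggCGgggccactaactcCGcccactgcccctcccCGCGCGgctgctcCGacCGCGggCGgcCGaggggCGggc
Acsl5, chr19:55253119-55253368, plus strand: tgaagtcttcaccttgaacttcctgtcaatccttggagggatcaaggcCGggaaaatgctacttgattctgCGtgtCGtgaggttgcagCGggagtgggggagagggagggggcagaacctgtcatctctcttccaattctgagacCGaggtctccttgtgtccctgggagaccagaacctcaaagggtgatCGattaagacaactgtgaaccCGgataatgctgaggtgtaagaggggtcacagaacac

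The Mboat2 window held 33 CG dinucleotides, a number reached by 4.03% of the 32851 promoters in RefSeq's table. The Acsl3 window held 28 and the Por window 21, and windows with at least as many made up 7.61% and 16.4% of the table. The Acsl5 window held 7, close to the median of 6 over the table, and 46.3% of promoters held at least as many. Among the other genes the number was 29 for Lpcat3, 25 for Acsl4, 23 for Mboat1 and 20 for the Acsl1 promoter at the start of the gene, whereas the inner Acsl1 promoter held 2. The hexamer GGGCGG, the core of the GC box, was present on either strand in 7 of the 9 promoters and in 32.7% of all promoters. It contains a CG itself, and 8 of the 9 windows held more CG dinucleotides than the median. The letters CCAAT were present on either strand in 6 of the 9 and in 33.85% of all promoters. The TATA hexamer TATAAA was present in none of the 9 and in 12.4% of all promoters, with both strands searched. Such matches describe letters only. The windows lie before the starts, whereas the Acsl5 peak begins 358 bp and the peak at the Acsl3 start 115 bp downstream of the listed start. The numbers therefore describe the windows and not the sequence under the peaks.

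All the peaks described here are 400 bp long, so their levels can be set side by side. Among peaks under the genes' own names, the order of the levels at gene starts was Acsl5 (85.3 CPM over the 4 libraries), Lpcat3 (76.1 CPM), Acsl1 (53.8 CPM), Mboat1 (33.9 CPM), Acsl4 (30.5 CPM) and Por (9.13 CPM at the peak on its listed start). The median peak within 1 kb of a start had 41.2 CPM, so that 3 of these starts stood above it. The ranges of the 4 libraries overlapped between Acsl5 and Lpcat3, but within each library Acsl5 was the higher. They also overlapped between Mboat1 and Acsl4, where Mboat1 was higher in both KL libraries and lower in both KLG4m/m libraries. The ranges were separate between Lpcat3 and Acsl1, between Acsl1 and Mboat1 and between Acsl4 and Por. This order leaves out the peaks under other names at or beside the RefSeq starts of Por (102.5 CPM), Acsl3 (39.4 CPM) and Mboat2 (36.4 CPM).

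Among the synthetases, Acsl4, the one that prepares polyunsaturated acids for phospholipids, had 1 peak, at its start (chrX:141173639-141174039). Read counts were 101 and 95 in KL and 117 and 102 in KLG4m/m. Both KLG4m/m libraries lay above both KL libraries, by a small margin. The means were 28.2 ± 1.20 and 32.8 ± 1.66 CPM. This was a log2 fold change of 0.22 (95% interval -0.08 to 0.52), with an adjusted p of 0.378 by edgeR. The interval leaves room for a fold change between 0.944 and 1.43.

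Acsl5, a synthetase of mitochondria and the endoplasmic reticulum, had 1 peak, 0.358 kb downstream of its listed start (chr19:55242159-55242559). It held 258 and 287 reads in KL and 307 and 308 reads in KLG4m/m. The groups did not overlap, and the highest level of any peak under one of the 8 names was in KLG4m/m replicate 4, with 95.4 CPM. The means were 78.4 ± 5.97 and 92.2 ± 4.48 CPM, a log2 fold change of 0.23 (0.04 to 0.42). The unadjusted p was 0.0203 by edgeR's quasi-likelihood test and the adjusted p was 0.123, so the difference did not pass.

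Acsl1, which activates fatty acids for oxidation and storage, had 5 peaks, at the start and in its first and second introns. The start peak (chr8:46923861-46924261) carried 61.8% of their summed level, with 185 and 195 reads in KL and 194 and 160 reads in KLG4m/m. The groups overlapped there, at 54.7 ± 2.08 and 52.9 ± 4.75 CPM, and the log2 fold change was -0.05 (-0.28 to 0.19, adjusted p = 0.848 by edgeR). The 4 intronic peaks were low, with 12 to 45 reads per library. The one 31.7 kb into the gene (chr8:46955757-46956157) held 34 and 36 reads in KL and 21 and 25 reads in KLG4m/m. Both KLG4m/m libraries were below both KL libraries at this peak, with a log2 fold change of -0.55 (-1.10 to 0.01) and an adjusted p of 0.210 by edgeR. The one 13.0 kb in had the opposite sign, 0.42 (-0.29 to 1.14, adjusted p = 0.486), and the log2 fold changes of the other two were 0.03 and -0.03.

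Acsl3, whose enzyme sits on lipid droplets and the endoplasmic reticulum, starts at the same base as Utp14b in RefSeq (GRCm38.p6), and the peak 115 bp inside that start was listed under Utp14b (chr1:78636183-78636583). It held 133 and 141 reads in KL and 149 and 115 reads in KLG4m/m. The 2 KLG4m/m libraries enclosed the KL libraries, at 39.4 ± 5.38 against 39.4 ± 1.66 CPM. Their log2 fold change was 0.00 (-0.27 to 0.28, adjusted p = 0.995 by edgeR). Reads at a shared start cannot be divided between the 2 genes.

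Among the acyltransferases, Lpcat3 had 3 peaks, at its start (chr6:124639756-124640156) and in its first intron. The start peak held 238 and 252 reads in KL and 285 and 260 reads in KLG4m/m. The groups were separate, at 70.5 ± 2.91 and 81.6 ± 1.52 CPM. The log2 fold change was 0.21 (0.01 to 0.41), with an unadjusted p of 0.0367 and an adjusted p of 0.171 by edgeR, and it did not pass. Both intronic peaks lay on the other side of 0. The first (chr6:124649128-124649528) held 22 and 33 reads in KL and 22 and 13 reads in KLG4m/m, a log2 fold change of -0.59 (-1.26 to 0.07, adjusted p = 0.264). The second (chr6:124660669-124661069) held 48 and 41 reads against 38 and 36 reads, a log2 fold change of -0.21 (-0.67 to 0.25, adjusted p = 0.608).

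Mboat1 had a peak at its start (chr13:30320419-30320819) and an intergenic peak 51.1 kb upstream (chr13:30268960-30269360). The start peak held 125 and 131 reads in KL and 113 and 94 reads in KLG4m/m. Here KLG4m/m lay below KL in both libraries, at 30.9 ± 2.59 against 36.8 ± 1.25 CPM, and the log2 fold change was -0.25 (-0.54 to 0.04, adjusted p = 0.278 by edgeR). The upstream peak held 27 and 26 reads in KL and 26 and 15 reads in KLG4m/m, a log2 fold change of -0.31 (-0.94 to 0.32, adjusted p = 0.567). That value was -0.01 without KLG4m/m replicate 4 and -0.72 without replicate 3. Neither difference passed.

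Mboat2 starts 118 bp from 2900060N12Rik, a noncoding RNA gene that runs the other way, and the peak that begins 2 bp inside 2900060N12Rik was listed under that name (chr12:24880914-24881314). It held 110 and 117 reads in KL and 148 and 120 reads in KLG4m/m. The groups were separate, at 32.7 ± 1.45 and 40.0 ± 4.08 CPM, with most of the distance in KLG4m/m replicate 3. The log2 fold change was 0.30 (0.01 to 0.58), with an unadjusted p of 0.0412 and an adjusted p of 0.182 by edgeR. Of the 2 acyltransferases of monounsaturated chains, the Mboat1 start thus had the lower mean in KLG4m/m and the peak beside the Mboat2 start the higher one, and neither passed the test.

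Por had 5 listed peaks, and the called one was the most distant from the gene body upstream (chr5:135686719-135687119). Its distance of 11.8 kb is from the first listed start, and the RefSeq start of Por lies a further 19.1 kb inside the gene (GRCm38.p6). Read counts at the called peak were 17 and 16 in KL and 28 and 34 in KLG4m/m. Both KLG4m/m libraries were above both KL libraries, at 9.32 ± 1.70 against 4.75 ± 0.199 CPM. The log2 fold change was 0.96 (SE 0.30, 95% interval 0.34 to 1.58), with an adjusted p of 0.0459 by edgeR. The share of peaks called higher was 3.29% among all peaks away from a start. The call was lost in limma (0.83, adjusted p = 0.0536). Leaving out any 1 library also lost it, but each such fit leaves a single library in a group. Losing a call there says little about 1 peak. The log2 fold change in these fits ran from 0.77 without KLG4m/m replicate 4 to 1.14 without KLG4m/m replicate 3. The peak was below the minimum of 10 CPM when low peaks were removed, and DESeq2 gave it no adjusted p.

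The 3 peaks near the listed Por starts were among the weaker peaks of their kind, between the 11.5th and 15.7th percentile of all peaks within 1 kb of a start. The peak on the first start (chr5:135698651-135699051) held 31 and 31 reads in KL and 26 and 36 reads in KLG4m/m, a log2 fold change of 0.06 (-0.49 to 0.60, adjusted p = 0.922 by edgeR). The other two had log2 fold changes of 0.42 and -0.45, with adjusted p of 0.427 and 0.357. The strongest of the 5 was intronic (chr5:135742365-135742765), with 86 and 54 reads in KL and 78 and 86 reads in KLG4m/m. The 2 KL libraries were far apart there, and the log2 fold change was 0.29 (-0.11 to 0.68, adjusted p = 0.374).

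The RefSeq promoter of Por printed above lies 19.1 kb inside the annotated gene (GRCm38.p6), and the gene spans 65287 bp in that build and in the deposited table alike. In the table, a peak reached from 18.9 to 19.3 kb inside Por and was listed under Gm40345 (chr5:135717826-135718226). This peak was the highest within the Por span, with 102.5 CPM over the 4 libraries, 53.8% of the summed level of the peaks counted for Por, and it stood at the 94.8th percentile of peaks within 1 kb of a start. It held 346 and 355 reads in KL and 350 and 345 reads in KLG4m/m. The groups overlapped, at 101 ± 1.92 and 104 ± 3.76 CPM, and the log2 fold change was 0.05 (-0.13 to 0.22, adjusted p = 0.790 by edgeR). The interval holds fold changes from 0.914 to 1.16.

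**Figure D2:**
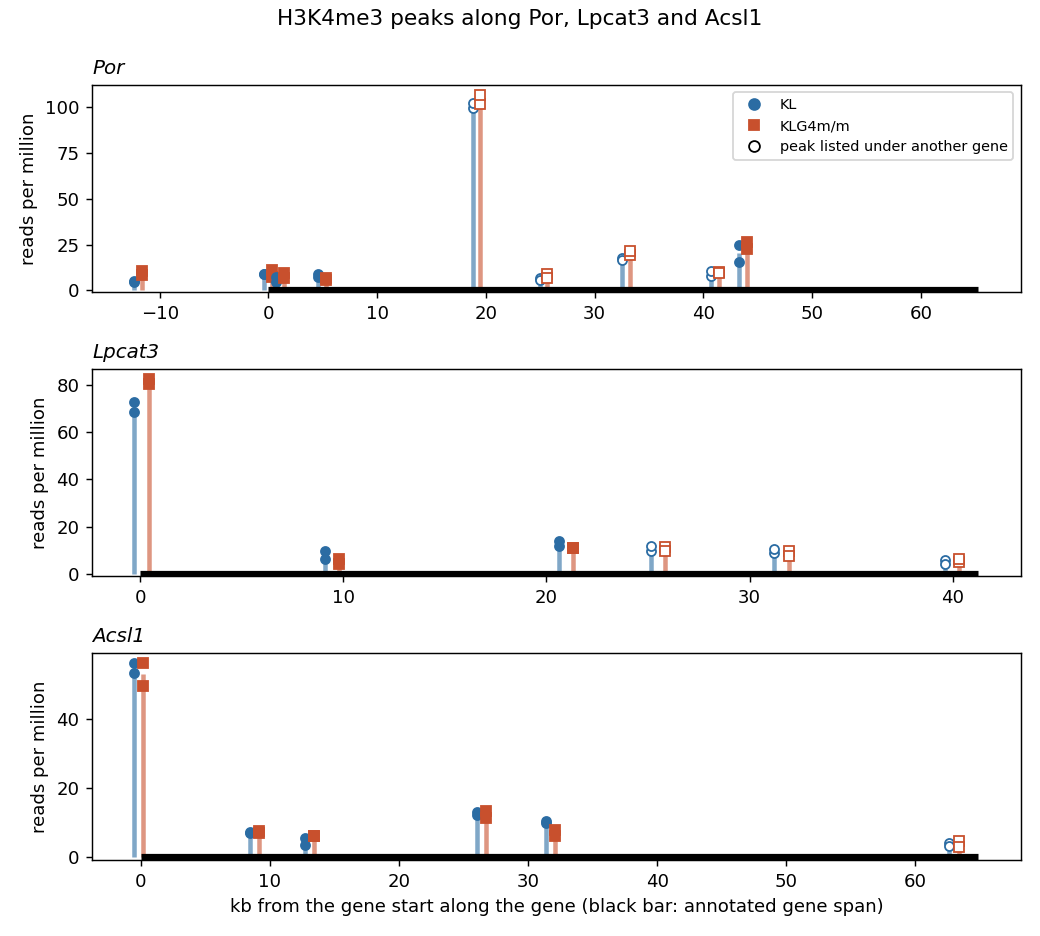
H3K4me3 along Por, Lpcat3 and Acsl1, with kb from the gene start on the horizontal axis, CPM on the vertical axis and the gene span as a black bar. Vertical lines end at the group mean and symbols are single libraries, with KL (circles) and KLG4m/m (squares) drawn just left and right of the peak centre and open symbols for peaks listed under another gene. The tallest peak of Por is the open one 19.1 kb inside the gene, at 101 and 104 CPM, whereas Lpcat3 and Acsl1 have their tallest peak at the start.

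In all, 9 peaks inside the spans of the 6 genes with peaks of their own were listed under other names, and 0 of them passed edgeR's test, with a lowest unadjusted p of 0.182. Beside the Gm40345 peak, the Por span held 3 peaks listed under Gm16061, with log2 fold changes of 0.36, 0.25 and 0.12. The Lpcat3 span held 3 listed under Emg1, at -0.04, -0.17 and 0.22. The Acsl1 span held 1 listed under Cenpu, at 0.06, and the Mboat1 span 1 listed under Gm40869, at 0.28.

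**Figure D3:**
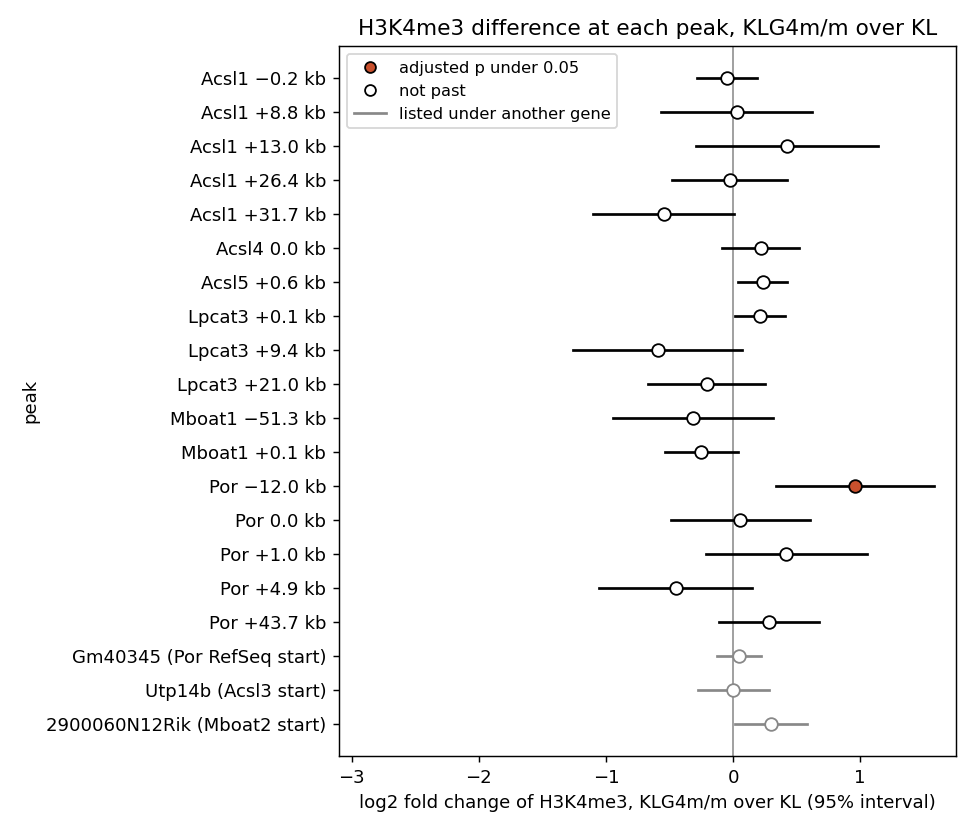
Log2 fold change of H3K4me3, KLG4m/m over KL, with its 95% interval from edgeR, for the 17 peaks (black) and for the 3 peaks listed under another gene at the starts of Por, Acsl3 and Mboat2 (grey). Filled points passed the threshold on the adjusted p. The upstream Por peak is the filled one, at 0.96, and the intervals of the start peaks of Acsl5 and Lpcat3 lie just above 0.

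With the reads of each gene summed over its listed peaks, 0 of the 6 genes passed, against 15% of all 20871 genes. An unadjusted p under 0.05 by edgeR was found for 2 of the 6 genes, Acsl5 and Por, and DESeq2 also called 0. The log2 fold change was 0.25 for Por (0.01 to 0.49, adjusted p = 0.156), 0.23 for Acsl5 (adjusted p = 0.0854), 0.21 for Acsl4 (adjusted p = 0.368), 0.10 for Lpcat3 (adjusted p = 0.496), -0.06 for Acsl1 (adjusted p = 0.722) and -0.26 for Mboat1 (-0.53 to 0.00, adjusted p = 0.183). The median was 0.16, and it was 0.00 over all genes. The libraries did not overlap in 5 of the 6 genes, with 3 above and 2 below KL, and in 56.7% of all genes. Por was the gene with overlap, at 52.2 and 44.0 CPM in KL and 50.9 and 63.8 CPM in KLG4m/m, and its value was 0.14 when peaks inside its span under other names were added to its own. Leaving out 1 library moved the summed Por value between 0.08 (without KLG4m/m replicate 4) and 0.41 (without KLG4m/m replicate 3), with 0.14 without KL replicate 2 and 0.38 without KL replicate 1. The summed Mboat1 value was -0.14 without KLG4m/m replicate 4 and -0.40 without replicate 3.

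The peaks of 1 gene could also differ from each other in their response. A test of each gene's peaks against one another (edgeR's diffSpliceDGE) called 0 of the 4 genes with several peaks, and 9.32% of the 7617 genes with several peaks overall. The unadjusted p was 0.0253 for Lpcat3 (adjusted p = 0.138), where the start peak and the intronic peaks had opposite signs, and 0.0350 for Por (adjusted p = 0.167). It was 0.286 for Acsl1 and 0.853 for Mboat1. For single peaks, 0 of 15 passed against 1.29% of such peaks in all genes, and 3 had an unadjusted p under 0.05. The called Por peak stood 0.71 above the rest of its gene on the log2 scale, with an adjusted p of 0.350.

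The genes around these 8 in the same pathway were read from a list of 34 genes, covering other acyl-CoA synthetases, fatty acid transport proteins, acyl-CoA thioesterases, binding proteins, other acyltransferases and the cytochrome b5 system. Of these, 30 had a listed peak. Summed over its peaks, H3K4me3 rose in 4 genes and fell in 3, and 23 did not pass, with a median log2 fold change of -0.01. The 7 called genes were 23.3% of the 30, beside 15% of all genes (5.38% higher and 9.63% lower). DESeq2 called 1 of the 30, Lpcat2. Leaving out KLG4m/m replicate 3 or replicate 4 leaves a single library in that group, and the edgeR calls were lost there. Losing a call in such a fit says little about these genes, and all 7 kept the sign of their value.

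Lpcat2, an acyltransferase that makes platelet-activating factor in inflammatory cells, rose from 33.4 and 40.3 CPM in KL to 57.8 and 61.4 CPM in KLG4m/m. Its log2 fold change was 0.69 (0.44 to 0.94, adjusted p = 1.6e-05 by edgeR), and its 3 peaks all had positive values. The peak with the largest value (1.47) lay 7.41 kb upstream of the listed start, in an intron of Mmp2. It held 8 and 8 reads in KL and 18 and 25 reads in KLG4m/m. At the start peak the value was 0.62 (adjusted p = 0.0180 by edgeR). Lpcat1, the acyltransferase of lung surfactant, fell by 0.29 on the log2 scale (adjusted p = 0.0269), from 95.7 and 96.2 CPM to 90.7 and 65.4 CPM. KLG4m/m replicate 4 decided the size for Lpcat1, since the value was -0.08 without it and -0.55 without replicate 3. Their relative Lpcat4 had a value of 0.02 and did not pass.

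Among the thioesterases, which release fatty acids from coenzyme A and so work against the synthetases, Acot9 of mitochondria and Acot11 rose and the cytosolic Acot1 fell. Acot1 had 60.8 and 60.5 CPM in KL and 42.1 and 42.9 CPM in KLG4m/m, a log2 fold change of -0.51 (adjusted p = 0.00103 by edgeR). Acot1 is one of a cluster of closely related genes, and reads that fit several of them would be uncertain. Acot9 went from 44.4 and 47.8 CPM to 55.2 and 64.5 CPM (0.37, adjusted p = 0.0210), and Acot11 from 55.7 and 56.7 CPM to 76.4 and 64.5 CPM (0.33, adjusted p = 0.0267). The Acot11 value was 0.20 without KLG4m/m replicate 3. The other 4 of the 7 thioesterases did not pass.

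The fatty acid transport proteins bring in and activate fatty acids. Slc27a2, the member of peroxisomes and the endoplasmic reticulum, fell from 26.5 and 27.3 CPM to 18.6 and 19.1 CPM (-0.51, adjusted p = 0.0313 by edgeR). The other 4 transport proteins with a peak did not pass. Cyb5r3, a cytochrome b5 reductase that like Por moves electrons from a pyridine nucleotide to a membrane acceptor, rose from 126 and 115 CPM to 138 and 151 CPM (0.26, adjusted p = 0.0109). The other 3 genes of the cytochrome b5 system did not pass. The 6 binding protein and lipase genes and the 3 other acyl-CoA synthetases with a peak did not pass.

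**Figure D4:**
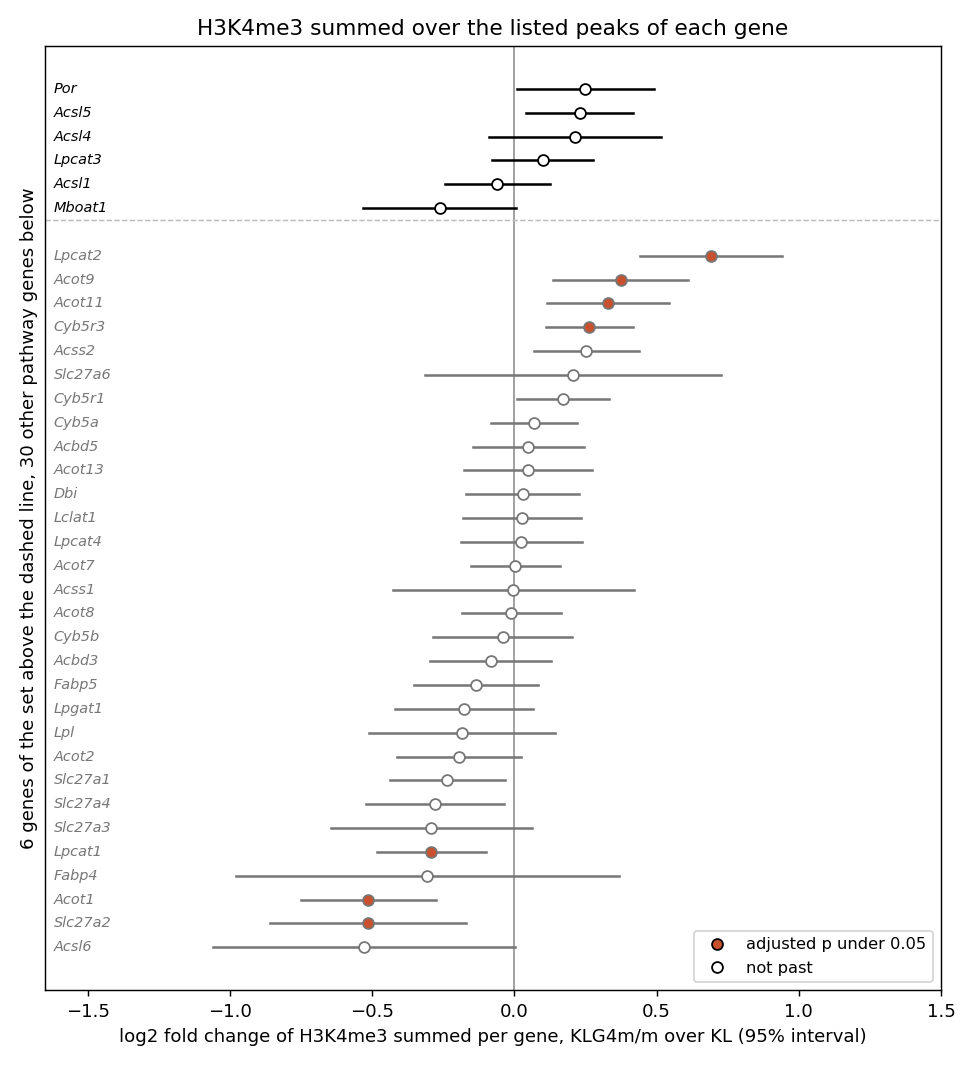
Log2 fold change of H3K4me3 summed over the listed peaks of each gene, KLG4m/m over KL, with its 95% interval, for the 6 genes with peaks (black, top) and the 30 other genes of the pathway (grey). Filled points passed the adjusted p. None of the 6 is filled, from 0.25 for Por to -0.26 for Mboat1, while 4 pathway genes on the right, led by Lpcat2 at 0.69, and 3 on the left are.

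The libraries held 3244495 to 3463731 reads in listed peaks. The Gpx4 promoter peak was higher in KLG4m/m (242 and 236 reads against 304 and 301 reads, log2 fold change 0.40, adjusted p = 0.00854 by edgeR). It lies outside the deleted exons and does not check the deletion. Lkb1 (Stk11 in the table) was deleted in both groups, and its summed peaks were higher in KLG4m/m by 0.36. Summed over each list, epithelial and lung epithelial markers were lower and leukocyte markers higher in KLG4m/m, while endothelial and fibroblast sums overlapped between the groups. Summed H3K4me3 over 6 epithelial markers was 278 and 279 CPM in KL and 234 and 237 CPM in KLG4m/m, with Epcam (-0.82) and Cdh1 (-0.38) past the test. Krt8 (-0.28) did not pass, nor did Krt18 (0.07), Krt19 (0.11) and Cldn7 (0.06), which lay on the other side of 0. Over the 5 lung epithelial markers with a peak it was 293 to 307 CPM in KL and 243 to 253 CPM in KLG4m/m, with Foxa2 and Sftpb lower, and Sftpc had no listed peak. Nkx2-1 (-0.13), Foxa1 (-0.15) and Napsa (0.03) did not pass. Over the 6 leukocyte markers with a peak it was 204 to 211 CPM in KL and 249.5 to 270.0 CPM in KLG4m/m, with Itgam and Adgre1 higher. Csf1r (0.28) and Cd3e (0.22) did not pass, nor did Mrc1, which had the opposite sign (-0.33). Ptprc, which encodes the CD45 that the sort selected against, carried the mark in every library, at 57.0 ± 3.60 and 66.5 ± 5.03 CPM, and did not pass. The 4 endothelial markers summed to 128 and 152 CPM in KL and 123 and 142 CPM in KLG4m/m. Tek (-0.55) was lower there, and Cdh5 (-0.51), Kdr (-0.14) and Pecam1 (0.19) did not pass. The 3 fibroblast markers with a peak summed to 64.6 and 71.7 CPM in KL and 69.5 and 72.8 CPM in KLG4m/m. Pdgfrb (1.29) was higher, on only 9 and 10 reads in KL and 22 and 23 reads in KLG4m/m. Col1a1 (0.15) and Pdgfra (-0.08) did not pass. The part of these shifts in the values of the 8 genes and of the pathway genes, Lpcat2 included, was not tested, and in sorted bulk cells a change in the share of a cell type and a change of the mark per cell cannot be told apart.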

How the data were processed

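H3K4me3 was profiled in 4 libraries, 2 each of KL and KLG4m/m, by an assay labelled CUT&Tag in which, per the labels, antibody-bound chromatin was cut with pAG-MNase. The authors trimmed the reads, aligned them, removed mitochondrial, duplicate and low-quality reads, called and annotated peaks, and deposited raw read counts per peak. The submitters' processing notes name Trim Galore 0.6.10, BWA 0.7.15, Picard 2.17.3, MACS2 2.2.7.1 and HOMER 4.11.1. The table also holds CPM and the authors' own comparison (fold changes and p-values), which were not used. The methods name a GRCm38 annotation, but the listed starts of the 6 genes with peaks lie at least 10.1 kb from their GRCm38.p6 positions, so the build of the peak coordinates, given as deposited, is unresolved. Promoter sequences are from RefSeq (GRCm38.p6), where all 8 genes matched, and distances were compared across builds only within a gene.

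Counts were tested as deposited with edgeR 4.0.16 (R 4.3.3), TMM scaling, no filter and glmQLFit and glmQLFTest over all 35486 peaks, or over 20871 genes after summing the peaks of a gene name. Peaks within a gene were compared with diffSpliceDGE. DESeq2 1.42.0, limma 3.58.1 on log2(CPM + 1), other scalings, a minimum of 10 CPM, the peak nearest the start and leaving out each library were alternatives. Scripts were tested on simulated data. An exact permutation test of 2 against 2 libraries cannot go below p = 0.333. Libraries of a group differed by more than counting noise (chi-square per degree of freedom 1.13 in KL and 1.23 in KLG4m/m). Library totals are reads in listed peaks only. The 8 genes and the gene lists were chosen with earlier results of these data known. The genes with values in the text were the 8 genes, the genes listed at their starts, Gpx4, Stk11, the pathway genes past the threshold and the markers. A leukocyte marker and an allele shared by both groups are not reported here.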

Additional observations from a re-analysis of the deposited data

How the results depend on the processing

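No paired analysis was possible because the KL libraries carry replicate numbers 1 and 2 and the KLG4m/m libraries 3 and 4, so no number is shared. Among all listed peaks, 1099 were higher and 1960 lower by edgeR, against 33 and 250 by DESeq2. Leaving out 1 library gave 0 to 702 higher and 0 to 1459 lower, and the 0 came from leaving out KLG4m/m replicate 3 or 4, where 5486 and 5178 peaks had an unadjusted p under 0.05. The count of called peaks of the 8 genes, 1, became 0 by DESeq2, by limma, with the 10 CPM minimum (8 of the 17 peaks kept) and without any 1 library (0 to 0). The unadjusted p was then under 0.05 at 0 of the 17 peaks by DESeq2, 4 by limma, 1 of 8 with the minimum and 1 to 3 without a library. DESeq2 gave no adjusted p for 8 of the 17 peaks. With median-of-ratios, total-read or median scaling the Por call was kept. The pathway list had 4 genes higher and 3 lower, against 1 and 0 by DESeq2, and 1 lower with only the peak nearest the start. Without 1 library it had 0 to 2 higher and 0 to 1 lower. The summed count of the 8 genes and both within-gene counts were 0 under every alternative run for them, including sums over a gene's own peaks and those of other names in its span, an alternative chosen after the data were seen. Signs turned only on leaving out a library, at 5 peaks whose values were between -0.05 and 0.06 except the intronic Por peak at 0.29. Over the 4 such fits the Acsl1 start peak ran from -0.146 to 0.0431 (positive without KLG4m/m replicate 4), the Acsl1 peak at 8.8 kb from -0.0166 to 0.0714 (negative without KLG4m/m replicate 4, and -0.00247 without KL replicate 1), the Acsl1 peak at 26.4 kb from -0.144 to 0.0846 (positive without KLG4m/m replicate 3, and 0.0218 without KL replicate 1), the Por peak on its first start from -0.240 to 0.316 (negative without KLG4m/m replicate 4) and the intronic Por peak from -0.00992 to 0.658 (negative without KL replicate 2). The causes were not tested. Of 302 values of single peaks and genes under an alternative, 7 turned sign, 257 kept sign and side of the threshold, and 38 kept the sign and lost the call. Without 1 library the Acsl1 peak at 13.0 kb ran from 0.131 to 0.787, the Por peak at 1.05 kb from 0.111 to 0.809 and the first intronic Lpcat3 peak from -0.973 to -0.271.

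Depth limits what can be seen at the weak peaks. An average under 10 CPM was found at 6 of the 9 peaks away from a start and at 3 of the 8 near one, all 3 of Por, and the widest 95% interval spanned 1.43 on the log2 scale, whereas those at the starts of Acsl5 and Lpcat3 spanned under 0.4. Intervals rest on 2 libraries a group.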
